A study of Mus musculus with 8 samples.

Results

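Mouse embryonic stem cells treated with a reagent that the labels call sh-linc1393 (sh) were compared with untreated wild-type cells (control). The comparison used 4 of the 8 RNA-seq libraries of the series, 2 of each group, numbered replicate 1 and replicate 2 by the labels. Genes were kept where the mean of the 4 libraries was at least 1 FPKM (fragments per kilobase of transcript, scaled to a total per library), which left 15892 of the 52338 genes with values. Each difference below is sh minus control on the scale log2(FPKM + 1), where 1 corresponds to a doubling of FPKM + 1. It was computed within replicate 1, within replicate 2 and between group means. The remaining 4 libraries came from cells treated with sd-linc1393 (sd) and dd-linc1393 (dd), and the labels do not say what sh, sd and dd stand for. For the sh libraries the genotype field repeats the treatment, so no genetic background is given for them.

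Embryonic stem cells are derived from the inner cell mass of the blastocyst and can form all tissues of the embryo. Their undifferentiated state depends on a small set of transcription factors, above all Pou5f1 (Oct4), Sox2 and Nanog, which bind many of the same enhancers. The study concerned linc1393, a long intergenic non-coding RNA (a long transcript that encodes no protein and lies between protein-coding genes), and its part in the maintenance of pluripotency. No gene identifier of the table was tied to linc1393, so the level of the target was not analysed here. The control cells received no reagent, so an effect of linc1393 and an effect of giving a reagent cannot be told apart. Whether replicate 1 and replicate 2 were separate cultures is not stated by the labels, so p-values reflect only library-to-library spread, possibly of technical origin. In bulk RNA, fewer cells of a type and less RNA per cell cannot be told apart.

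The control libraries were shallower than the sh libraries. Reads assigned to genes, recovered from the FPKM values, numbered 6415129 and 3658367 in control and 13738589 and 13972323 in sh. A count of 0 allows up to 3 reads, which for a transcript of 1 kb is 0.468 and 0.82 FPKM in the control libraries and 0.218 and 0.215 FPKM in the sh libraries (counting error only). Within both groups the replicate 2 library listed many more genes above 0 than the replicate 1 library, with 40970 against 16152 genes in control and 46560 against 18337 in sh. Of 1969 olfactory and vomeronasal receptor genes, which belong to sensory epithelia, 103 and 140 were above 0 in the replicate 1 libraries and 1529 and 1819 in the replicate 2 libraries. They held 0.0143% to 0.219% of the reads of a library.

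All 10 stem cell markers were above 0 in all 4 libraries. Their summed level was 1495 and 8598 FPKM in control and 1523 and 6972 FPKM in sh, and most of the gap between the numbers was Dppa5a. Markers of other cell types were lower in sum. The 20 fibroblast feeder markers summed to 70.8 and 76.5 FPKM in control and 68.3 and 123 FPKM in sh, with 12 of them under 1 FPKM in all 4 libraries. The 18 blood and immune markers summed to 21.1 to 94.9 FPKM, the 18 neuroectoderm markers to 20.3 to 32.5 FPKM, the 19 mesoderm markers to 8.64 to 49.8 FPKM, the 21 endoderm markers to 122 to 223 FPKM and the 18 trophoblast markers to 17.3 to 51.3 FPKM. No marker was listed at 0 in all 4 libraries.

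Few genes were higher or lower in sh by a doubling in both replicate numbers. A difference of at least 1 in both was found for 89 genes (0.56% of those tested) and one of -1 or less in both for 25 genes (0.157%). With median ratio scaling of the libraries the split was 43 higher and 39 lower, and with quantile normalization it was 60 and 31. Of the 89 genes, 42 were processed pseudogenes and 29 were protein-coding, and of the 25 genes, 9 were protein-coding and 5 were processed pseudogenes. Within replicate 1 alone 1226 genes were higher and 806 lower by this margin (median of all genes 0.06, SD 0.71). Within replicate 2 alone 925 were higher and 1132 lower (median 0.16, SD 0.83).

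No gene passed the test over all genes. limma called 0 genes between sh and control at an adjusted p of 0.05 (0%), with 32 genes at an unadjusted p under 0.05. This fit has no covariate, so its residual spread includes the gap between the replicate numbers. The same holds for the SEs and adjusted p-values below unless the block is named. With the replicate number as a block limma called 0 genes, with 534 unadjusted. The voom fit on recovered reads also gave 0 calls, with 11 genes at an unadjusted p under 0.05, and 0 calls when the block was added, with 496. The genes below are therefore described by their values, and none of their differences passed this test.

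The differences of the replicate numbers were not alike over genes. The correlation of the replicate 1 difference with the replicate 2 difference was r = -0.05 and rho = -0.07 over the 15892 genes, and r = -0.21 and rho = -0.29 over the 3149 genes with a mean of at least 20 FPKM. Genes are not independent replicates, and the points share their libraries and their depth. A positive difference in both numbers was found for 5172 genes (32.5%) and a negative one in both for 1742 (11%). Both sh libraries lay above both control libraries for 1222 genes (7.69%) and below both for 376 (2.37%). Against counting error alone, with an exact 95% interval of the read ratio, 2014 of 15865 genes were higher in both numbers and 304 lower in both. A further 958 genes were higher in replicate 1 and lower in replicate 2, and 1591 were the reverse.

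**Figure D1:**
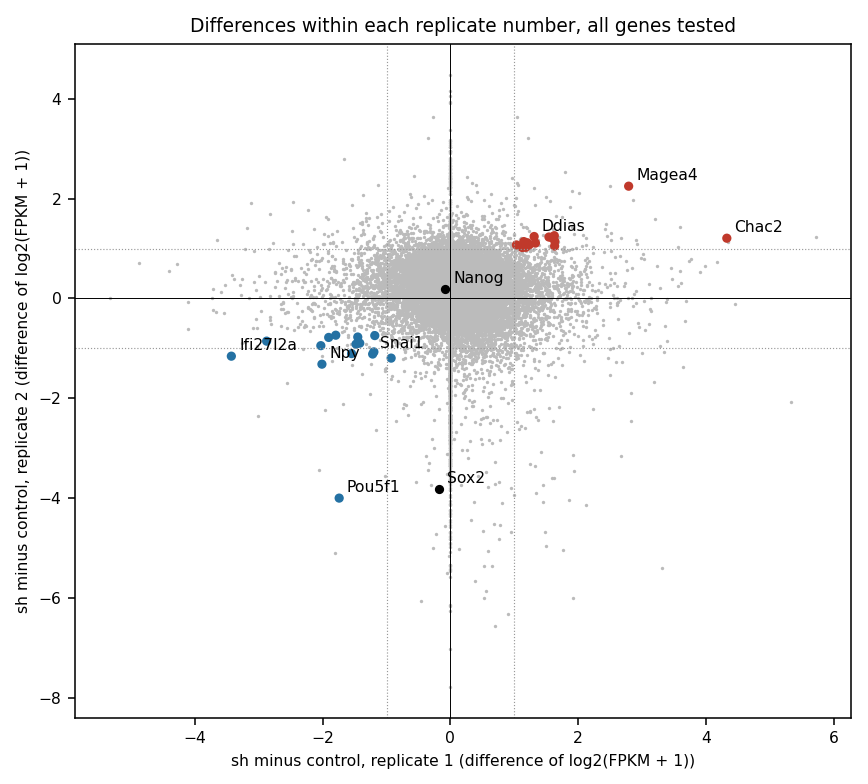
Difference of log2(FPKM + 1), sh minus control, within replicate 1 (horizontal axis) and within replicate 2 (vertical axis), 1 grey point for each of the 15892 genes. Red points are the 15 leading genes higher in sh and blue points the 15 lower ones, black points are Sox2 and Nanog, and dotted lines mark differences of -1 and 1. The cloud shows no shared slope (r = -0.05), Magea4 lies far to the upper right, and Pou5f1 lies far to the lower left.

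Leading genes were chosen among those whose groups do not overlap, so the separation of sh from control in them follows from the choice. Examples of most gene lists further below were chosen the same way. The 15 higher and 15 lower genes with the largest difference shared by both numbers lead the description that follows. Of these, Magea4, Ddias and Chac2 on the higher side and Pou5f1, Npy and Snai1 on the lower side are shown first by sequence. The 250 bases before their RefSeq starts are given so that the start regions of the leading genes can be compared by eye. All are from RefSeq (GRCm38.p6, the assembly that mm10 names), written 5′ to 3′ on the gene's strand. Capitals mark a CCAAT box, searched as CCAAT and its reverse complement ATTGG, and a GC box, searched as GGGCGG and its reverse complement CCGCCC. The windows are chrX:72221767-72222016 (plus strand) for Magea4, chr7:92874248-92874497 (minus) for Ddias, chr11:30986366-30986615 (minus) for Chac2, chr17:35505782-35506031 (plus) for Pou5f1, chr6:49822460-49822709 (plus) for Npy and chr2:167537945-167538194 (plus) for Snai1.
Magea4: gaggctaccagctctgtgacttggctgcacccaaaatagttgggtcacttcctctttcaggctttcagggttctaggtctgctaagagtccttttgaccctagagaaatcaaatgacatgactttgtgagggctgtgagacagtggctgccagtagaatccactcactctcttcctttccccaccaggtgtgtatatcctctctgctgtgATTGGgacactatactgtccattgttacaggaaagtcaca
Ddias: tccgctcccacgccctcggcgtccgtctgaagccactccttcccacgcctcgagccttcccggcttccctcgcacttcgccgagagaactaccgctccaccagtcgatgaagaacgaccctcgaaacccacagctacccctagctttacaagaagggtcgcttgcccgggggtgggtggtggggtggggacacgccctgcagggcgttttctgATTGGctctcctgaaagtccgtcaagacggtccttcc
Chac2: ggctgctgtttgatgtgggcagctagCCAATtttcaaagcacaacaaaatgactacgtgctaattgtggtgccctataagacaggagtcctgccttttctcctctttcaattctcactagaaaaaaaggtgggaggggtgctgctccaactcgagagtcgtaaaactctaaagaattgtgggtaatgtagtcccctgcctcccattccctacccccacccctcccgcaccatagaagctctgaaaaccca
Pou5f1: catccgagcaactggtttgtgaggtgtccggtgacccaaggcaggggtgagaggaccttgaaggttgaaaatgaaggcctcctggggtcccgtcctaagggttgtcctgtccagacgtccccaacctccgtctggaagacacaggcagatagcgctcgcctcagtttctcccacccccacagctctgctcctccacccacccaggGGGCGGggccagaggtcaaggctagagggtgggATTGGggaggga
Npy: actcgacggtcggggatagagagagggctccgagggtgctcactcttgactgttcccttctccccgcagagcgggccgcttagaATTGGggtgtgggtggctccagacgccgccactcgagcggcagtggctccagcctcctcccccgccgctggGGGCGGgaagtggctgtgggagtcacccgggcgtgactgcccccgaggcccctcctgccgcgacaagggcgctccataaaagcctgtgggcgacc
Snai1: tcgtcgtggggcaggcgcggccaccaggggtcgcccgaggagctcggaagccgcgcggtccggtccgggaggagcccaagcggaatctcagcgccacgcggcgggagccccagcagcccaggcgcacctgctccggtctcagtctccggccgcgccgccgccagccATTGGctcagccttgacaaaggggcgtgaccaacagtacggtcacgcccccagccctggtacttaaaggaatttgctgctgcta

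Each of the 6 windows held 1 CCAAT box. It lay 40 bases before the RefSeq start in Magea4, 37 in Ddias, 224 in Chac2, 12 in Pou5f1, 166 in Npy and 84 in Snai1. The RefSeq start of Pou5f1 lies 14 bases downstream of its GENCODE start. Its CCAAT box therefore falls within the gene as GENCODE bounds it. Pou5f1 and Npy also held a GC box, at 45 and 95 bases before the start. CpG dinucleotides, which are rich in the start regions of widely expressed genes, numbered 0 in Magea4, 4 in Chac2, 8 in Pou5f1, 21 in Ddias, 21 in Npy and 27 in Snai1. A CCAAT box was found in 34.5% of all 27025 RefSeq windows of this length and in 37.4% of the 8239 windows of protein-coding genes tested, and a GC box in 32.9% and 61.7%. Of the 23 windows of protein-coding genes higher by at least 1 in both numbers, 10 held a CCAAT box and 13 a GC box, and of the 5 windows of lower ones 4 held each. These matches describe letters in a window and not bound sites.

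Among the leading genes, Magea4 had the largest difference shared by both numbers. It encodes a member of the melanoma antigen family, a group normally transcribed in testis (chromosome X, 72222017 to 72222964, plus strand, GRCm38, ENSMUSG00000033343). Its level was 0 and 0.288 FPKM in control and 5.91 and 5.13 FPKM in sh, from 0, 1, 77 and 68 reads. Both sh libraries were far above both controls. Within replicate 1 it was at least 12-fold higher in sh, taking 3 reads as the floor of the control library, and within replicate 2 the read ratio was 17.8 (exact 95% interval 3.09 to 713). The difference between group means was 2.52 (SE 0.49), and limma gave an adjusted p of 1 (0.999 with the block). It was also above control in the other treatments, at 3.63 and 3.23 FPKM in sd and 1.87 and 2.22 FPKM in dd. Against sd the difference of sh was 0.56 (limma adjusted p = 1) and against dd it was 1.10 (limma adjusted p = 1).

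Ddias, which encodes a suppressor of apoptosis after DNA damage, was the leading gene with ample reads in all libraries (chromosome 7, 92857525 to 92874247, minus strand). It had 5.52 and 6.65 FPKM in control and 15.2 and 17.1 FPKM in sh. The groups were well apart and the libraries within each were close. The read ratio was 2.75 (2.28 to 3.33) in replicate 1 and 2.57 (2.07 to 3.23) in replicate 2, and the difference of means was 1.28 (SE 0.56; limma adjusted p = 1). Ddias lay in the same range in sd (21.9 and 13.8 FPKM) and dd (20.9 and 17 FPKM).

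Chac2 encodes an enzyme that degrades glutathione (chromosome 11, 30976707 to 30986350, minus strand). Its level was 0.237 and 2.49 FPKM in control and 23.8 and 7.08 FPKM in sh, from 2, 12, 430 and 130 reads. Both sh libraries were above both controls, and the size differed between the numbers. The read ratio was 100 (27.6 to 832) in replicate 1 and 2.84 (1.57 to 5.63) in replicate 2. The difference of means was 2.77 (SE 0.84; limma adjusted p = 1). Asb3 overlaps it on the other strand, and without strand information their reads could not be told apart.

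A further 5 leading higher genes have known roles in the cell. Utp6, a component of the complex that processes the precursor of 18S ribosomal RNA, had 12.1 and 7.08 FPKM in control and 28 and 16.8 FPKM in sh. Its read ratio was 2.32 (2.07 to 2.61) in replicate 1 and 2.37 (1.96 to 2.90) in replicate 2. Ddx10, a DEAD-box RNA helicase gene, had 11.3 and 7.78 FPKM in control and 27.4 and 18 FPKM in sh, with ratios of 2.42 (2.10 to 2.81) and 2.32 (1.86 to 2.92). In both genes the groups did not overlap. Dnm1l, the dynamin-related GTPase of mitochondrial fission, had 8.36 and 10.7 FPKM in control and 18.2 and 23.7 FPKM in sh. Pcf11, a factor of messenger RNA 3′-end cleavage and transcription termination, had 1.14 and 2.37 FPKM in control and 4.03 and 6.13 FPKM in sh. Ncapg2, a condensin II subunit, had 1.08 and 1.24 FPKM in control and 3.54 and 3.54 FPKM in sh. In all 5 genes the lower sh value was above the higher control value, as the rule that chose them required.

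The other 7 leading higher genes were Catsperz, Platr4, Gca, Zfp2, Terb2, Dtd1 and Scamp1, with differences of 1.03 to 1.63 within a number. Terb2, which encodes a protein that ties telomeres to the nuclear envelope in meiosis, had 0 and 1.42 FPKM in control and 1.51 and 4.23 FPKM in sh, at least 6.85-fold higher within replicate 1. Platr4, a long non-coding RNA named for its link to pluripotency, had 0.244 and 0.428 FPKM in control and 2.62 and 2.35 FPKM in sh. Its control values rested on 4 reads each. Catsperz, a subunit gene of the sperm calcium channel, had 0.371 and 0.65 FPKM in control and 3.23 and 2.95 FPKM in sh. Its reads are uncertain, since transcripts of other genes hold 41.8% of its sampled 31-base stretches and Kcnk4 overlaps it in the same orientation. All 7 had non-overlapping groups, as the rule that chose them required.

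**Figure D2:**
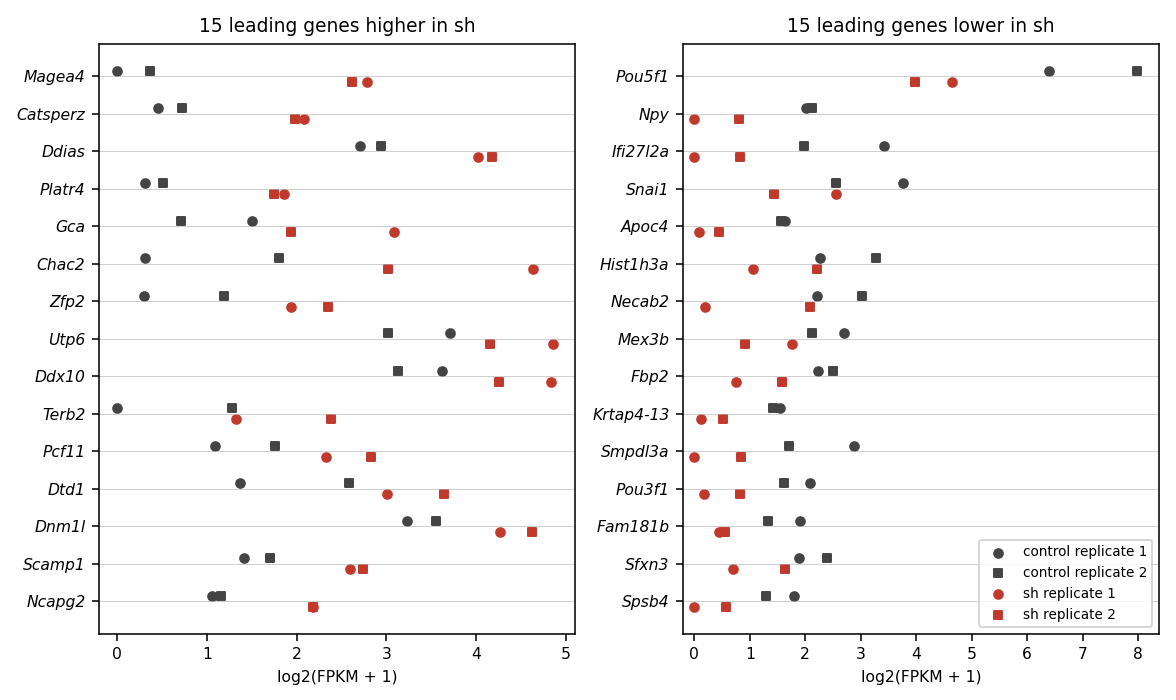
Level in each library, as log2(FPKM + 1) on the horizontal axis, of the 15 leading genes higher in sh (left) and the 15 lower in sh (right). Grey marks are control and red marks sh, circles are replicate 1 and squares replicate 2. Groups do not overlap in any row because the genes were chosen so, and Pou5f1 stands at far higher levels than the other lower genes.

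Pou5f1, the POU factor without which pluripotent cells are not kept, was the leading lower gene and the highest in level among the 15 (chromosome 17, 35506018 to 35510772, plus strand, ENSMUSG00000024406). It had 83.1 and 251 FPKM in control and 24.2 and 14.7 FPKM in sh, from 1198, 2065, 746 and 463 reads. Both sh libraries were below both controls. The level was 3.44 times lower within replicate 1 and 17.0 times lower within replicate 2. The difference of means was -2.87 (SE 1.12; limma adjusted p = 1), and with the block the SE was 0.64 (limma adjusted p = 0.999). Leaving out 1 library at a time moved it from -3.66, without control replicate 1, to -2.08, without control replicate 2. Of its sampled stretches 19.8% occur in transcripts of other genes, and Gm19553 overlaps it on the other strand. In sd its level was 17.8 and 130 FPKM and in dd 21 and 53.1 FPKM, and the difference of sh was -1.32 against sd and -0.80 against dd (limma adjusted p = 1 for both).

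Snai1, the zinc finger repressor of epithelial genes, was lower by a similar factor in both numbers (chromosome 2, 167538195 to 167542814, plus strand). It had 12.6 and 4.89 FPKM in control and 4.85 and 1.72 FPKM in sh. Both sh values lay below both controls, but only just below in the case of sh replicate 1 and control replicate 2. Reads gave 2.60 times lower in replicate 1 and 2.84 times lower in replicate 2. The difference of means was -1.17 (SE 0.89; limma adjusted p = 1), and it ranged from -1.77 without control replicate 2 to -0.56 without control replicate 1.

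Npy, the neuropeptide Y gene, had 3.03 and 3.38 FPKM in control and 0 and 0.759 FPKM in sh, from 11, 7, 0 and 6 reads (chromosome 6, 49822710 to 49829507, plus strand). It was at least 7.85-fold lower within replicate 1 and 4.46 times lower within replicate 2. Both sh libraries were low, on few reads. The interferon-inducible Ifi27l2a had 9.76 and 2.95 FPKM in control and 0 and 0.773 FPKM in sh. It was at least 20.7-fold lower within replicate 1, while within replicate 2 the interval of the read ratio, 0.0603 to 1.14, included 1. Pou3f1, a POU factor of the primed state and of neural cells, had 3.24 and 2.06 FPKM in control and 0.132 and 0.781 FPKM in sh. Mex3b, an RNA-binding protein gene, had 5.48 and 3.34 FPKM in control and 2.41 and 0.896 FPKM in sh. In each of these 4 genes both sh values were below both controls, and none was called (limma adjusted p = 1).

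The other 8 named lower genes besides Hist1h3a were low throughout, with at most 7.17 FPKM in any library. Smpdl3a, a phosphodiesterase gene, had 6.34 and 2.25 FPKM in control and 0 and 0.797 FPKM in sh, at least 60.0-fold lower within replicate 1. Spsb4, an adaptor of ubiquitin ligases, had 2.47 and 1.46 FPKM in control and 0 and 0.479 FPKM in sh, at least 50.7-fold lower within replicate 1. In replicate 2 these genes were 2.82 and 3.06 times lower, so the size was far smaller there. Hist1h3a, a histone H3 gene, shares 56.9% of its stretches with other transcripts, Fam181b 57.1% and Krtap4-13 89.9%, so all 3 are uncertain.

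Sox2 and Nanog did not follow Pou5f1 in both numbers. Sox2 had 200 and 291 FPKM in control and 177 and 19.7 FPKM in sh. It was 1.13 times lower within replicate 1 and 14.8 times lower within replicate 2, so sh replicate 2 stood alone. Without that library its difference was -0.44 against -2.00 with all libraries (SE 1.08; limma adjusted p = 1). Sox2 lies within Sox2ot on the same strand. In the other treatments it had 207 to 371 FPKM, and the difference of sh was -1.86 against sd and -2.29 against dd (limma adjusted p = 1 for both). Nanog had 243 and 215 FPKM in control and 230 and 247 FPKM in sh, which overlapped (difference 0.06, SE 0.67).

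Of the 24 core factors and partners tested, 13 were positive in both numbers (54.2%), 2 were negative in both (8.33%) and 0 were called. Among all protein-coding genes tested these shares were 38.2% and 11.4%. The median of the 24 was 0.04 in replicate 1 and 0.37 in replicate 2, against 0.06 and 0.16 for all genes. Zfp42 (Rex1), a marker of the undifferentiated state, had 293 and 132 FPKM in control and 298 and 220 FPKM in sh. L1td1, an RNA-binding protein gene of stem cells, had 134 and 42.7 FPKM in control and 158 and 87.9 FPKM in sh. In both genes the groups overlapped. Lin28a, which blocks the maturation of let-7 microRNAs, had 2.73 and 2.33 FPKM in control and 3.37 and 5.96 FPKM in sh. Dppa5a, an RNA-binding protein gene of stem cells, had 292 and 7286 FPKM in control and 373 and 5866 FPKM in sh. Its reads are uncertain, since 59.3% of its stretches occur in transcripts of other genes.

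**Figure D3:**
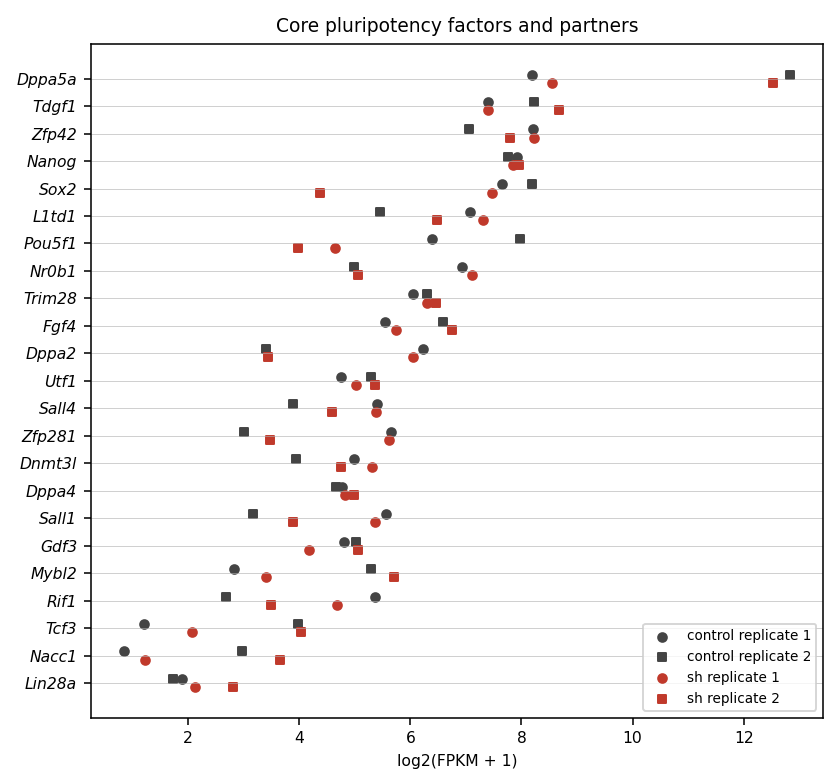
Level in each library, as log2(FPKM + 1), of 23 of the 24 core pluripotency factors and partners, ordered by mean level. Grey marks are control and red marks sh, circles are replicate 1 and squares replicate 2. Pou5f1 is low in both sh libraries, Sox2 is low in sh replicate 2 alone, and Dppa5a separates by replicate number.

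The 22 naive state genes had medians of 0.17 and 0.53, with 13 positive in both numbers (59.1%) and 1 negative in both (4.55%). Among all protein-coding genes tested these shares were 38.2% and 11.4%, with medians of 0.10 and 0.22. Tbx3, a T-box factor of the naive state, had 19.6 and 11.8 FPKM in control and 25 and 21 FPKM in sh. Nr5a2, a nuclear receptor that can drive Pou5f1, had 8.64 and 5.75 FPKM in control and 15.7 and 9.39 FPKM in sh. Tfcp2l1 had 8.41 and 7.5 FPKM in control and 9.53 and 13.7 FPKM in sh. In these 3 genes both sh libraries exceeded both controls, as the choice of examples required. Of the 22 genes, 3 lay above both controls in this way and 1 below, against 7.69% and 2.37% of all genes. Fgfbp1, of the same list, went the other way, with 3.93 and 1.21 FPKM in control and 1.16 and 0.696 FPKM in sh. Of 14 formative and primed state genes tested, 2 were positive in both numbers and 1 was negative in both. The 11 two-cell-like genes tested had 5 positive and 2 negative in both, with medians of 0.01 and 0.57. None of these genes was called.

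Lineage markers had mixed directions. Of 9 mesoderm and primitive streak genes tested, 0 were positive in both numbers and 2 were negative in both, with medians of 0.00 and -0.67. Fgf8, Gsc, Mesp1 and Mesp2 were at 0 FPKM in both replicate 1 libraries and passed the filter only through replicate 2. These genes could therefore count neither as positive nor as negative in both numbers, and the replicate 1 median rests on them. Eomes, a T-box factor of the streak and trophoblast, had 3.15 and 2.04 FPKM in control and 1.75 and 1.81 FPKM in sh. Of 16 endoderm markers, 5 were positive and 3 negative in both. Foxa2, a factor of definitive endoderm, had 2.76 and 2.42 FPKM in control and 1.69 and 0.544 FPKM in sh, while Col4a1, a basement membrane collagen gene, had 6.37 and 6.67 FPKM in control and 8.06 and 11.2 FPKM in sh. Of 6 neuroectoderm markers tested, 4 were positive and 0 negative in both, and of 10 trophoblast markers, 4 were positive and 3 negative. None was called, and for all genes the shares were 32.5% and 11%.

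Mitosis and DNA replication genes were higher in sh at the median in both numbers, as were all protein-coding genes by less. Of 36 mitosis genes, 22 were positive in both (61.1%) and 1 was negative in both, with medians of 0.18 and 0.66. Among all protein-coding genes tested, 38.2% were positive and 11.4% negative in both, with medians of 0.10 and 0.22. Bub1b, a spindle checkpoint kinase gene, had 12.4 and 9.91 FPKM in control and 14.7 and 27.9 FPKM in sh, and Kif23, a kinesin of cytokinesis, had 4.66 and 3.77 FPKM in control and 6.07 and 12.1 FPKM in sh. Plk1, the mitotic polo kinase, had 15.5 and 14 FPKM in control and 21.2 and 23 FPKM in sh. In all 3 the sh libraries lay above the controls, as the choice of examples required, and the difference within replicate 2 was the larger. Of the 36 mitosis genes, 6 lay above both controls in this way and 0 below, against 7.69% and 2.37% of all genes. Of 35 DNA replication genes, 19 were positive and 0 negative in both, with medians of 0.14 and 0.34. Rfc1, the large subunit of the clamp loader, had 7.09 and 7.76 FPKM in control and 12.4 and 15.1 FPKM in sh. The 20 G1 regulators had 3 positive and 3 negative in both, with medians of -0.08 and 0.10. Rbl1 (p107), a pocket protein that restrains entry into S phase, had 1.33 and 2.14 FPKM in control and 4.03 and 4.91 FPKM in sh. No gene of these lists was called.

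The synthesis, translation factor, Myc, proteasome, splicing, glycolysis and cholesterol lists had positive medians in both numbers. So did all protein-coding genes tested (0.10 and 0.22, with 38.2% positive and 11.4% negative in both). Cytosolic ribosomal proteins (0.38 and -0.31) and nuclear-encoded respiratory chain subunits (0.26 and -0.21) did not and are given further below. Of 25 one-carbon and nucleotide synthesis genes, 16 were positive and 2 negative in both (medians 0.24 and 0.42). Ctps, the CTP synthase gene, had 16.5 and 15.7 FPKM in control and 20.7 and 26.5 FPKM in sh. Of 25 translation factors, 17 were positive and 2 negative in both (0.20 and 0.50), and Eif3a, the scaffold of initiation factor 3, had 16.4 and 13.2 FPKM in control and 18.4 and 30.9 FPKM in sh. Of 23 Myc family members and targets, 11 were positive and 2 negative (0.23 and 0.23). Nop58, a core protein of box C/D small nucleolar particles, had 24.3 and 15 FPKM in control and 35.8 and 24.7 FPKM in sh. The 28 proteasome subunits had 15 positive and 2 negative (0.31 and 0.25), the 27 splicing factors 14 and 0 (0.03 and 0.51), the 22 glycolytic enzymes 13 and 0 (0.07 and 0.44) and the 23 cholesterol genes 9 and 1 (0.12 and 0.53). The share positive in both ran from 39.1% for cholesterol genes to 68% for translation factors. None was called.

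Matrix, adhesion and small RNA lists had positive medians in both numbers, as did all protein-coding genes tested (0.10 and 0.22, with 38.2% positive and 11.4% negative in both). Of 20 basement membrane and matrix genes, 13 were positive and 1 negative in both (0.19 and 0.69). Plod2, a collagen lysyl hydroxylase gene, had 8.47 and 10.3 FPKM in control and 12 and 26.9 FPKM in sh. Of 24 adhesion and junction genes, 14 were positive and 1 negative (0.19 and 0.47). Of the 15 small RNA pathway genes tested, out of 22 listed, 10 were positive and 1 negative (0.23 and 0.57). Dicer1, which cuts precursor microRNAs, had 0.279 and 1.06 FPKM in control and 1.33 and 2.31 FPKM in sh. Ago2, the slicing Argonaute, had 4.23 and 3.37 FPKM in control and 6.88 and 6.53 FPKM in sh. For both genes the sh libraries lay above the controls, as the choice of examples required, and neither was called. Of the 15 small RNA pathway genes, 4 lay above both controls in this way and 0 below, against 7.69% and 2.37% of all genes. Of the 18 germline and cancer-testis genes tested, the list that holds Magea4, 9 were positive and 2 negative in both (0.07 and 0.70).

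In the stress and signalling lists other than interferon response, genes positive in both numbers outnumbered those negative in both, as they did among all genes (32.5% and 11%). The 24 p53 targets had 11 positive and 3 negative in both, and the 22 Atf4 amino acid stress genes 9 and 3. Fas, a death receptor gene and p53 target, had 4.99 and 1.06 FPKM in control and 0 and 0.694 FPKM in sh. The 20 endoplasmic reticulum chaperones and the 18 cytosolic chaperones had 10 positive and 0 negative each. The 13 interferon response genes had 2 positive and 3 negative (0.25 and -0.28). Of the 27 glutathione and redox genes, which include Chac2, 8 were positive and 4 negative. Of 19 LIF and Stat3 genes, 5 were positive and 3 negative, and Jak1, the kinase under the LIF receptor, had 5.03 and 4.43 FPKM in control and 10.4 and 7.9 FPKM in sh. Of 24 FGF and ERK genes 7 and 4, of 17 Wnt genes 6 and 2, of 27 Nodal and BMP genes 13 and 3, and of 14 Hippo genes 7 and 2 were positive and negative in both. None was called.

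Chromatin lists are set beside the shares of all protein-coding genes tested, 38.2% positive in both numbers and 11.4% negative in both. The 22 genes of Wdr5 and the H3K4 methyltransferase complexes had 5 positive and 1 negative in both, or 22.7% and 4.55%, the 27 Polycomb genes 10 and 5 (37.0% and 18.5%), the 17 DNA methylation genes 7 and 1 (41.2% and 5.88%), the 24 H3K9 methylation genes 8 and 1 (33.3% and 4.17%) and the 27 remodeller subunits 16 and 1 (59.3% and 3.70%). The lists thus lay on both sides of those shares. Phc1, a Polycomb subunit of stem cells, had 16.5 and 15.5 FPKM in control and 23.6 and 34.5 FPKM in sh. Kdm1a, the H3K4 demethylase gene LSD1, had 9.84 and 17.4 FPKM in control and 18.1 and 28.2 FPKM in sh. In both genes the groups did not overlap, as the choice of examples required. Both sh libraries lay above both controls for 1 of the 27 Polycomb genes and below for 2. In the Wdr5 list 1 lay above and 1 below, against 7.69% and 2.37% of all genes. Of 25 stem cell long non-coding RNA genes, 9 were positive in both (36%) and 3 negative in both (12%). Among the 319 tested genes annotated as lincRNA these shares were 15.7% and 13.2%, with no matching of level. Of 17 imprinted genes, 5 were positive (29.4%) and 1 was negative (5.88%). None was called.

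**Figure D4:**
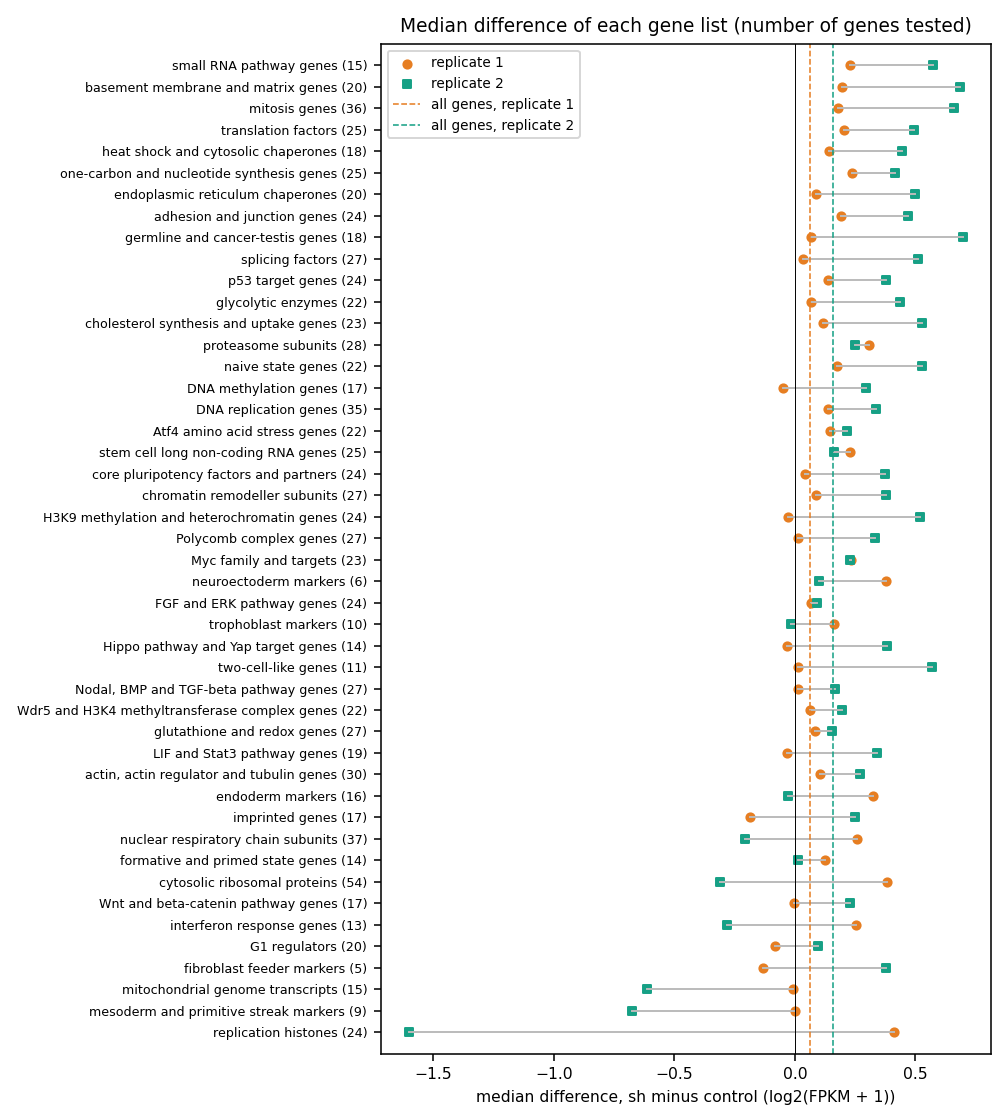
Median difference of each gene list, sh minus control in log2(FPKM + 1), within replicate 1 (orange circles) and replicate 2 (green squares), for lists with at least 5 genes tested, given in parentheses. Dashed lines are the medians of all genes (0.06 and 0.16). Most lists lie above 0 in both numbers, as do all genes, while replication histones (0.41 and -1.60) and cytosolic ribosomal proteins (0.38 and -0.31) have opposite signs.

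Some lists went opposite ways in the replicate numbers. Of 54 cytosolic ribosomal proteins, 48 were positive in replicate 1 and 10 in replicate 2, with medians of 0.38 and -0.31. Rps3, of the small subunit, had 78.2 and 837 FPKM in control and 92.3 and 457 FPKM in sh. The 37 nuclear-encoded respiratory chain subunits had medians of 0.26 and -0.21. The 24 of 31 replication histones that passed the filter, short genes whose transcripts lack a poly(A) tail, had medians of 0.41 and -1.60, with 0 positive and 2 negative in both. Hist1h2ab had 0.659 and 52.6 FPKM in control and 2.92 and 4.39 FPKM in sh, so control replicate 2 alone was high. The 15 mitochondrial genome transcripts had medians of -0.01 and -0.61. Of these 7 were positive in replicate 1 and 1 in replicate 2, so a shift of the list showed in replicate 2 alone. In both numbers 1 was positive (6.67%) and 8 were negative (53.3%), against 32.5% and 11% of all genes. The share of reads on the mitochondrial genome was 6.91% and 6.01% in control and 6.38% and 3.32% in sh.

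The differences within replicate 2 moved with exon length. Over the 10477 protein-coding genes the rank correlation of difference with exon length was -0.06 in replicate 1 and 0.29 in replicate 2, given as a description. In 5 equal groups of genes, from the shortest to the longest, the median difference was 0.11, 0.11, 0.14, 0.08 and 0.07 in replicate 1. In replicate 2 it was -0.11, 0.17, 0.26, 0.34 and 0.33. Control replicate 2, the shallowest library, had 62.3% of its reads on protein-coding genes and 28.3% on processed pseudogenes, against 67.8% and 26.3% in sh replicate 2. In the replicate 1 libraries these shares were 87.7% and 6.71% in control and 87.5% and 6.94% in sh. The filter on mean FPKM lets a short gene pass on few reads in the shallowest library. The part of length, the filter and depth in the differences of single genes and lists was not tested.

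**Figure D5:**
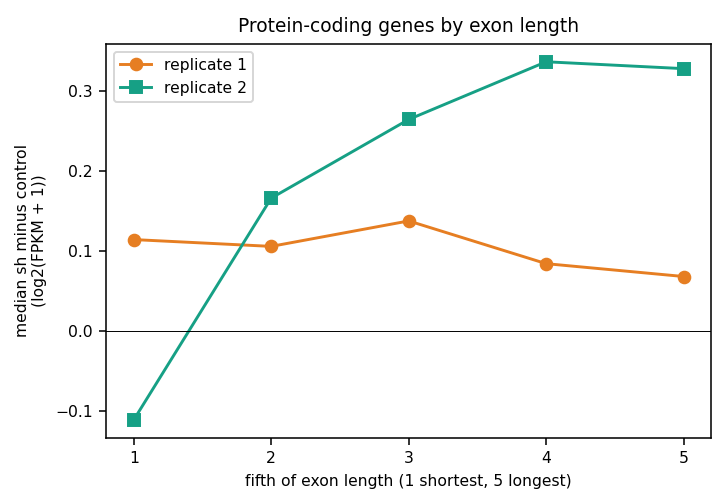
Median difference, sh minus control in log2(FPKM + 1), of protein-coding genes in 5 equal groups by exon length, from the shortest (1) to the longest (5), within replicate 1 (orange circles) and replicate 2 (green squares). The replicate 2 medians run from -0.11 in the shortest group to 0.33 in the longest, while those of replicate 1 lie between 0.07 and 0.14.

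No gene was called between sh and the other treatments. limma found 0 genes between sh and sd (0%; 8 at an unadjusted p under 0.05) and 0 between sh and dd (0%; 10 unadjusted). With the block it called 0 in both, with 336 and 681 unadjusted. With voom weights on the recovered reads it called 0 in both, with 3 and 21 unadjusted without the block and 473 and 1344 with it. These counts do not show that the treatments act alike. For the leading genes the values stand side by side. Ifi27l2a had 0 and 0.773 FPKM in sh, 0 and 0.422 in sd and 0 and 0.318 in dd, and Npy had 0 and 0.759, 0.347 and 0.46, and 0 and 0.173. Chac2 had 13.8 and 5.64 FPKM in sd and 12.3 and 10.1 FPKM in dd, against 23.8 and 7.08 FPKM in sh and 0.237 and 2.49 FPKM in control. Catsperz had 0.234 and 1.29 FPKM in sd and 1.08 and 1.71 FPKM in dd, below both sh libraries, with a difference of sh of 1.28 against sd and 0.79 against dd (limma adjusted p = 1 for both). All 3 treatments were set against the same control libraries.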

How the data were processed

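RNA of 8 libraries of mouse embryonic stem cells was sequenced, and the authors deposited 1 table of FPKM per gene and library, per the file headers. CASAVA 1.4, HISAT2 and mm10 are named in the submitters' processing notes. Which program counted reads, on which annotation, with which FPKM formula and whether by strand is not given in the sources used here. The table had 58420 rows, 6082 of them empty. GENCODE M21 identifiers matched 52081 of the 52338 genes with values and 257 had no match. The number of columns of no sample was 0.

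Reads were recovered from the deposited FPKM and the exon length, because low values fall on steps worth 1 read, and 98.3% to 98.9% of values under 100 reads were whole within 0.02 reads. Totals are reads assigned to genes. Floors of 3 reads and exact 95% intervals of read ratios cover counting error only. Differences are of log2(FPKM + 1), computed from the deposited values, which understates changes of low genes.

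The test was limma 3.58.1 (R 4.3.3), fitted to all 8 libraries without a covariate (4 residual degrees of freedom), with a mean-variance trend and two-sided p-values, Benjamini-Hochberg adjusted over the 15892 genes. The replicate number as a block, from the labels, was an alternative. Deviations from the group means correlated at 0.73 to 0.89 between same-numbered libraries, with 2 libraries a group making the values of both numbers equal, and the numbers were taken as pairing the libraries. Within a number there is 1 library a group and no test. The fit was also run on simulated data that gave all genes 1 common spread. That run does not show which changes the fit could find in these data.

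The genes, lists and tests were chosen with earlier results of these data known. Named genes are the 15 higher and 15 lower with the largest smaller of the 2 within-number differences. These were taken among genes whose groups do not overlap, leaving out predicted, clone, pseudogene and small RNA symbols. Up to 3 a direction of each list were added by the same measure, again among members whose groups do not overlap. The core pluripotency list was added as well. Hist1h2ab and Rps3 were chosen after their values were seen. Some genes that the rule names are not reported here. Promoter windows are from RefSeq, and stretches of 31 bases, sampled every 10, were sought in other genes' transcripts. Alternatives were the pseudocount, the filter, the scaling, the libraries fitted, protein-coding genes only, leaving out each library, and, added after seeing the data, voom on recovered reads and intervals of read ratios.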

Additional observations from a re-analysis of the deposited data

How the results depend on the processing

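limma called 0 genes between sh and control, sh and sd, and sh and dd under each alternative run, with 0 also the lowest and highest count over the leave-one-out fits and 0 with the replicate block. For sh against control the lowest adjusted p was 0.0544, without control replicate 1. The counts of genes higher and lower by at least 1 in both numbers, 89 and 25, became 291 and 107 with a pseudocount of 0.1, 157 and 58 with 0.5, 39 and 8 at a mean of at least 5 FPKM, 43 and 39 with median ratio scaling, and 29 and 9 for protein-coding genes only. They were 847 and 191 at a difference of at least 0.5, and 2014 and 304 by intervals of the read ratio. The pseudocount, filter and margin change which genes can pass by construction, and for the scaling the cause was not tested. The median difference of all genes was 0.12, and -0.03 with median ratio scaling, which turned the sign of 15 of 48 list medians (quantile normalization 3). Leaving out 1 library turned 8 to 18 of them. In those fits the groups differ in their mix of replicate numbers.

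Of 138 named genes, some turned sign, none of them called. Their main differences include values near 0 and also 0.63 for L1td1, 0.53 for Nacc1, 0.50 for Mybl2 and 0.46 for Tcf3. With median ratio scaling these were Dppa4 (-0.0053), Nanog (-0.14), Utf1 (-0.019), Fgf4 (-0.022), Dppa5a (-0.18), Rif1 (-0.13) and Nr0b1 (-0.078). With quantile normalization they were Rif1 (-0.042) and Nr0b1 (-0.014). Over the fits that leave out 1 library the difference ran from -1.48 to 1.33 for Dppa2, -2.30 to 2.34 for Dppa5a, -0.34 to 0.69 for Fgf4, -0.75 to 0.13 for Gdf3, -0.18 to 1.44 for L1td1, -0.74 to 1.73 for Mybl2, -0.69 to 1.75 for Nacc1, -0.028 to 0.15 for Nanog, -0.91 to 1.15 for Nr0b1, -1.27 to 1.41 for Rif1, -0.93 to 1.46 for Sall1, -0.41 to 1.09 for Sall4, -0.92 to 1.85 for Tcf3, -0.40 to 0.86 for Tdgf1, -0.10 to 0.45 for Utf1, -1.10 to 1.55 for Zfp281 and -0.19 to 0.96 for Zfp42.
The block changed no call. Depth limits genes at low level: control replicate 2 could miss a 1 kb transcript under 0.82 FPKM.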

Other observations

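Genes with the largest difference within 1 replicate number are given here as values. They were picked with these values in view. The lowest differences within replicate 2 came mostly from a high value in control replicate 2. Ccdc36, a gene of meiotic recombination, had 0 and 81.2 FPKM in control, 0.101 and 1.54 FPKM in sh, and 1.55 and 0.56 FPKM in the replicate 2 libraries of sd and dd. Kif3a, a motor subunit of intraflagellar transport, had 4.35 and 63.5 FPKM in control and 2.70 and 4.01 FPKM in sh. Kdm5b, an H3K4 demethylase gene, had 17.3 and 54.6 FPKM in control and 23.7 and 3.72 FPKM in sh, with 6.66 and 3.62 FPKM in replicate 2 of sd and dd. For these 3 genes control replicate 2 was the highest of the 8 libraries.

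In replicate 1 the extremes were on both sides. Epp13 had 0 FPKM in control replicate 1 and 14.8 FPKM in sh replicate 1, against 14.8 and 23.9 FPKM in replicate 2. Eif1b, a translation initiation factor gene, had 0.554 and 13.6 FPKM in replicate 1 of control and sh, and 22.4 and 35.7 FPKM in replicate 2. Kbtbd3 had 11.7 FPKM in control replicate 1 and 0 FPKM in sh replicate 1, with 3.74 and 2.91 FPKM in replicate 2. Gpx8, a peroxidase of the endoplasmic reticulum, went opposite ways, with 10.1 and 0.278 FPKM in replicate 1 of control and sh and 0.522 and 4.71 FPKM in replicate 2.

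The 10 highest differences within replicate 2 were those of Magea4, Gpx8, Golm1, Kif20a, Supt16, Otud6a, Smc1b, Ncapg, Armcx2 and Mki67. Ncapg, a condensin subunit gene, had 2.32 FPKM in control and 9.72 FPKM in sh there, and Mki67, the proliferation marker Ki-67, had 2.72 and 10.6 FPKM. In replicate 1 they had 0.507 and 0.793 FPKM, and 1.13 and 1.06 FPKM. Smc1b, the meiotic cohesin subunit gene, had 1.49 and 7.04 FPKM in replicate 2 and 1.69 and 0.27 FPKM in replicate 1. No test was made of these values.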
